A study of Mus musculus with 30 samples.

Results

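The genes described here are 9 regulators and markers of the neurectoderm, Sox1, Sox3, Sox11, Pax6, Zic1, Nes, Ncam1, Tubb3 and Pou3f2. They were chosen by name, and all 9 were found among the 22477 genes of the expression table. The table came from polyadenylated RNA of mouse secondary induced pluripotent stem cells (iPSCs), that is, iPSCs that carry transgenes for Oct4, Sox2, Klf4 and cMyc (OSKM) under the control of doxycycline (dox). The 30 RNA-seq samples formed 15 conditions of 2 replicates each. All conditions shared the inducible OSKM transgenes, a GFP reporter placed in the endogenous Nanog locus and a constitutive nuclear RFP. The cells had been maintained on CF1 mouse embryonic fibroblasts in serum and LIF. The withdrawal conditions, 7 in number, followed 2i/LIF withdrawal, in which cells kept in serum-free N2B27 medium with LIF and 2 kinase inhibitors (2i) were left in N2B27 alone, and were collected after 0, 24, 36, 48, 60, 72 or 96 h. In the other 8 conditions, cells withdrawn for 0, 24, 48 or 96 h were re-seeded for 48 h in serum/LIF that either lacked dox (– dox) or held it at 2 µg/ml to turn the OSKM transgenes on (+ dox). No cell sort is given for these samples, so each value is an average over a mixed population, in which fewer cells of a type and less RNA per cell cannot be told apart.

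The neurectoderm is the part of the early embryo that gives rise to the nervous system. Pluripotent cells that lose the signals keeping them naive pass through a formative state, and in serum-free medium without inducers many of them then turn toward neural fate. SoxB1 factors such as Sox1 and Sox3 mark neural progenitors, Sox1 being the classical marker of the neural plate, while SoxC factors such as Sox11 act in later progenitors and young neurons. Pax6 and Zic1 are patterning factors of the neural plate and neural tube, and Pou3f2 (Brn2) is a POU factor of neural progenitors and neurons. Nes (nestin) is an intermediate filament protein of neural progenitors that other dividing cells also make. Ncam1 is a neural cell adhesion molecule that is also made outside the nervous system, and Tubb3 is the beta-tubulin commonly used to mark neurons.

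Expression was given as FPKM (fragments mapped to a gene, scaled by the length of its transcript and by the depth of the library), with a single value per condition that the authors had combined from both replicates. The spread between replicates was therefore not measurable here, no difference below could be tested, and neighbouring values in any order of levels could not be separated. A gene is called higher or lower when its values differed at least 2-fold and the higher value was at least 1 FPKM, and only genes that reach 1 FPKM in either condition of a comparison count as compared. Medians of log2 ratios were taken after adding 0.1 FPKM. Of the 9 genes, 8 reached 1 FPKM in some condition and 5 reached 10 FPKM. Pou3f2 stayed below 1 FPKM throughout.

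The genes lie on 7 chromosomes (mm10, Gencode M21). Sox1 is at chr8:12395295-12400126 on the plus strand and Tubb3 on the same chromosome at chr8:123411424-123422015, also on the plus strand. Sox3 is at chrX:60891366-60893430, Sox11 at chr12:27334264-27342574 and Pou3f2 at chr4:22482780-22488366, all 3 on the minus strand. Pax6 is at chr2:105668900-105697364 and Nes at chr3:87971078-87980451, both on the plus strand. Zic1 at chr9:91358058-91365810 and Ncam1 at chr9:49502136-49798925 are on the minus strand. Sox1, Sox3, Sox11 and Pou3f2 are single-exon genes, which made up 4 of the 9 (44.4%) and 663 of the 17756 annotated protein-coding genes of the table (3.73%).

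Promoter windows from RefSeq (GRCm38.p6, 250 bases before to 50 after the start) were found for 7 of the 9 genes, with 8 windows in all. Sox3 and Ncam1 had no window and are not described for sequence. Because the cells express Oct4 and Sox2, endogenous or induced, the windows were searched on both strands for the octamer ATGCAAAT that POU factors recognise and for the SOX core CATTGT, and besides for CCAAT and TATAAA. The octamer was found in the Sox1 window, beginning at base 18 counted from the RefSeq start and inside the single exon of the Gencode annotation, and in 1.74% of all 32851 windows. The SOX core was found in the Tubb3 window at 2 places, beginning 146 and 96 bases before the RefSeq start, the near one inside the gene as Gencode annotates it, and in 12.6% of all windows. These sites are shown with the motif in capitals, all on the plus strand, in the order Sox1 chr8:12395526-12395555, Tubb3 chr8:123411395-123411424 and Tubb3 chr8:123411445-123411474.
Sox1 octamer: gccagcgcgccATGCAAATcaccgccgccg
Tubb3 SOX core, far: agacttgctccgCATTGTgcgggcggatct
Tubb3 SOX core, near: cagagcctgccgCATTGTgcggcgctccag

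CCAAT was present in 6 of the 8 windows and in 37.4% of all windows, and TATAAA in none of the 8 and in 13.6% of all. The windows of these genes had a median GC content of 62.0%, against 52.7% over all windows, and a median of 22.5 CpG, against 7. The 250 bases before the start of Sox11, the gene with the highest ratio of 96 h to 0 h, are shown from the minus strand (chr12:27342719-27342968), with the CCAAT box, here in its reverse form, in capitals. A match of letters in such a window is a description and does not show that a factor binds there.
Sox11 promoter: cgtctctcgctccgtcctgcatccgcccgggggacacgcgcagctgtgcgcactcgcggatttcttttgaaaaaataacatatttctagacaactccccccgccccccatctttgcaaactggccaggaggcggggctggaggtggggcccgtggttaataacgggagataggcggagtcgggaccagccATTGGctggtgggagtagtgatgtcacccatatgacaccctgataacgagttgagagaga

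During 2i/LIF withdrawal the genes did not come on together. Sox3 and Sox11 were already about 10 times higher at 24 h than at 0 h, Nes was higher from 36 h, there by just 2.01-fold, and Sox1 was the late gene, low until 48 h and highest at 96 h. Pax6 had an early high value at 24 h and a later climb, Ncam1 was highest before withdrawal, and Zic1 and Pou3f2 stayed below 0.3 FPKM. At 96 h, 5 of the 7 genes compared were higher than at 0 h and none was lower, where 16.8% of all 13394 genes compared were higher and 16.4% lower. At 48 h, 3 of 6 were higher and 2 were lower, where 12.1% of all genes compared were higher and 17.0% lower. The median log2 ratio to 0 h over all 9 genes, those too low to compare included, was 0.61 for the 48 h and 1.60 for the 96 h timepoint. Over the members compared alone, 6 and 7 in number, it was 1.17 and 3.59, and over all genes compared it was -0.02 for both. All comparisons with 0 h share the 0 h value.

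**Figure D1:**
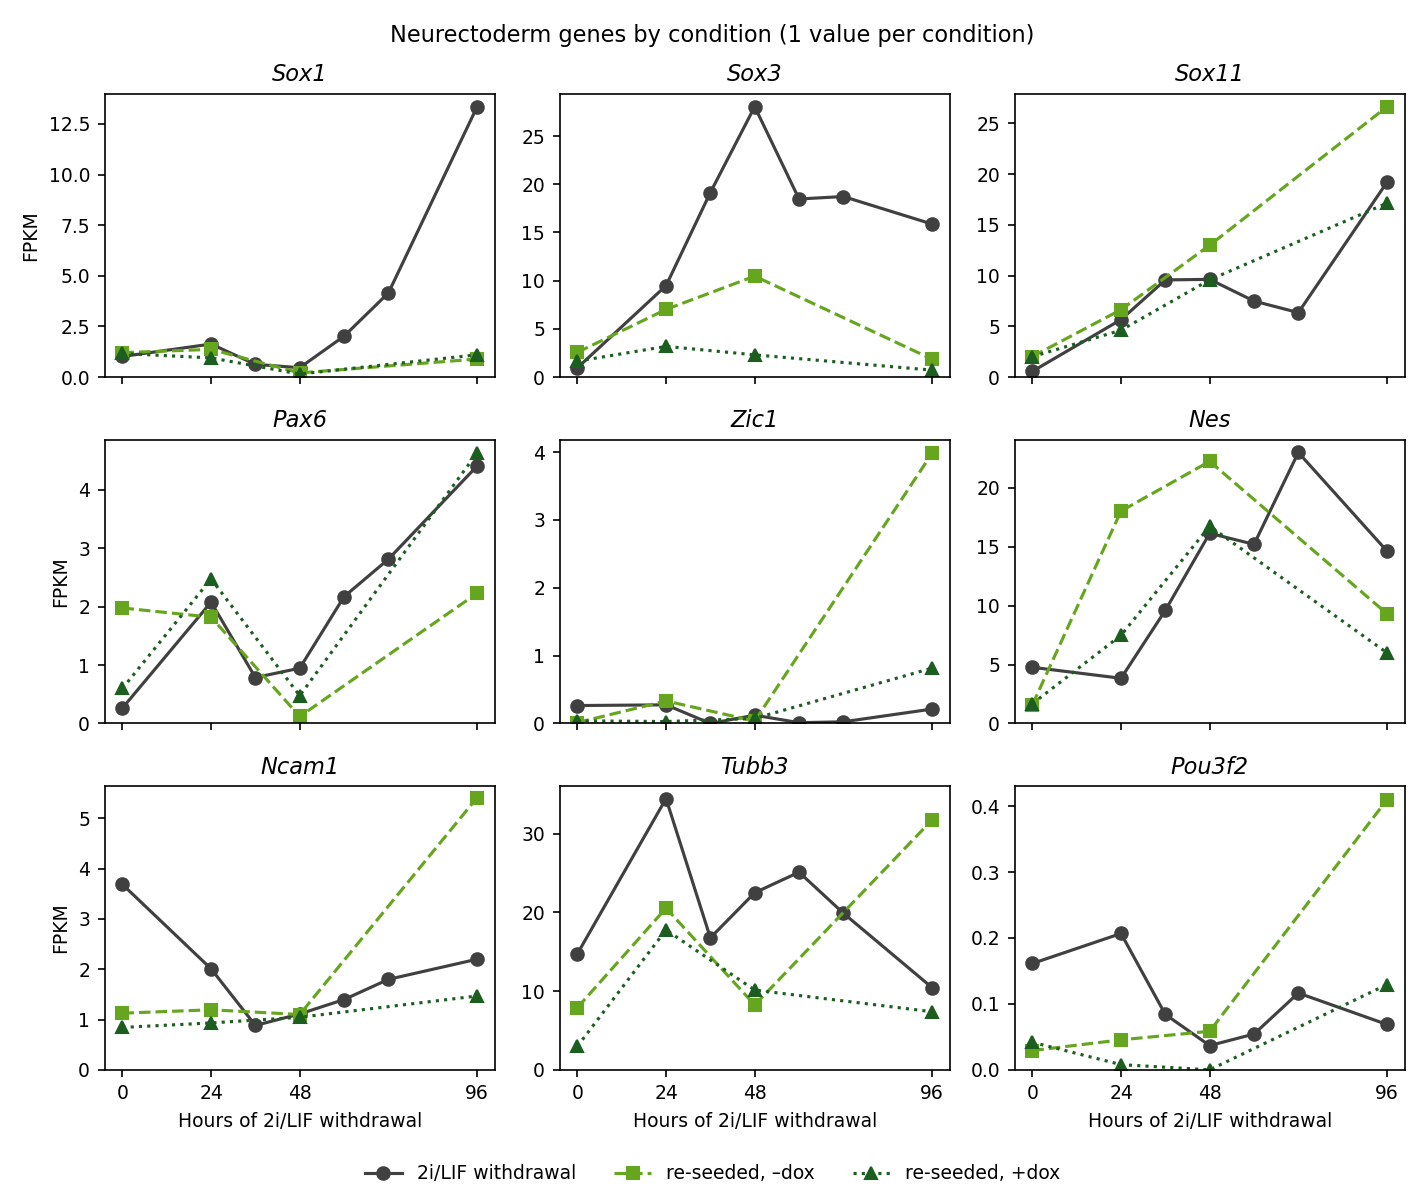
Expression (FPKM, 1 combined value per condition, linear axis starting at 0 and scaled for each gene) of the 9 genes against hours of 2i/LIF withdrawal, for the withdrawal itself (grey circles) and for cells re-seeded in serum/LIF without (light green squares) or with dox (dark green triangles). Sox1 reaches 13.3 FPKM at 96 h of withdrawal and stays below 1.7 FPKM in every re-seeded condition, while Zic1 passes 1 FPKM in 96 h – dox cells alone.

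Sox1, the SoxB1 factor of the neural plate, was at 1.02, 1.63, 0.630, 0.464, 2.02, 4.16 and 13.3 FPKM after 0, 24, 36, 48, 60, 72 and 96 h of withdrawal. The value at 96 h was 13.1-fold that at 0 h, and the 48 h value was 2.2-fold lower than that at 0 h, a call that is lost when 0.1 FPKM is added to both values or the sums are made equal. After its lowest value at 48 h, each later timepoint was at least 2-fold above the one before it, by 4.36-fold, 2.05-fold and 3.21-fold. Sox3, a second SoxB1 factor that is already active in the epiblast, had its highest value earlier. Its values over the same 7 timepoints were 0.959, 9.48, 19.1, 28.0, 18.5, 18.7 and 15.9 FPKM. Its peak at 48 h, 29.3-fold above 0 h, fell on the timepoint at which Sox1 was lowest.

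Sox11, the SoxC factor, was at 0.566, 5.66, 9.58, 9.64, 7.49, 6.36 and 19.2 FPKM from 0 to 96 h. It thus had a plateau and then a second, 3.02-fold step between 72 and 96 h, and its 96 h value was 34.0-fold that at 0 h. Pax6 was at 0.263, 2.08, 0.786, 0.946, 2.17, 2.81 and 4.41 FPKM, and its 96 h value was 16.8-fold that at 0 h. The dip at 36 and 48 h and the climb after it were those of Sox1 also, and over the 7 timepoints the Pearson correlation of both genes on the log2(FPKM + 1) scale was 0.86. This value is a description of 7 values that come from 1 table and 1 normalization.

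Zic1 and Pou3f2 were not part of this sequence. Zic1 was at 0.264 and 0.275 FPKM after 0 and 24 h, was listed at 0 after 36 h, and was at 0.122, 0.0117, 0.0247 and 0.213 FPKM after 48, 60, 72 and 96 h. Pou3f2 ranged from 0.0368 FPKM at 48 h to 0.207 at 24 h. Both therefore entered no comparison along the withdrawal.

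Of the 3 structural markers, Nes was at 4.76, 3.83, 9.60, 16.1, 15.2, 23.0 and 14.6 FPKM over the 7 timepoints. The call at 36 h is lost when 0.1 FPKM is added to both values. Nes was 3.39-fold above 0 h at 48 h and 3.07-fold above at 96 h. Tubb3 was the most abundant of the 9 genes before withdrawal, and its values were 14.7, 34.4, 16.8, 22.5, 25.1, 19.9 and 10.4 FPKM. The highest, at 24 h, was 2.34-fold that at 0 h, and the 96 h value was the lowest of the withdrawal. Ncam1 was at 3.69, 2.01, 0.882, 1.11, 1.40, 1.80 and 2.2 FPKM. It was 4.18-fold lower at 36 h than at 0 h and climbed in each step after that, by less than 2-fold at a time.

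The 0 h condition differed from the others in its fibroblast RNA, and the cells had been kept on fibroblast feeders. The summed level of 16 fibroblast markers was 854, 110, 48.4, 72.7, 85.4, 138 and 236 FPKM over the 7 timepoints. At 0 h the most abundant marker was Col1a1 (228.7 FPKM) and none was at 0, whereas at 96 h the collagens Col1a1 (5.64) and Col3a1 (1.47) were low and the most abundant marker was Tagln (104.5), a gene of contractile cells. Of the 16 markers, 12 were lower at 96 h than at 0 h and 2, Tagln and Acta2, were higher. Over all genes compared, 16.4% were lower and 16.8% higher. The part of fibroblast RNA in the 0 h values of Ncam1, Nes and Tubb3 was not tested. With re-seeded 0 h – dox cells as the reference, in which the same 16 markers summed to 12.8 FPKM, 5 of 7 genes were higher at 96 h and none lower, where 15.3% of all genes compared were higher and 16.2% lower. With 24 h as the reference 4 of 7 were higher and 1, Tubb3, lower, against 20.5% and 16.3%. Both references were chosen after seeing the data.

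Counted over all 6 comparisons with 0 h, the genes were higher in 24 of the 40 gene-by-comparison values that could be compared and lower in 5. Over all genes these shares were 12.8% and 16.1%. Between neighbouring timepoints, 11 of 40 were higher and 4 lower, against 5.0% and 5.74% over all genes. Of the 11 higher values 7 were in Sox1, Sox3 and Sox11. Between 36 and 48 h none of the 5 genes compared was called, where 2.78% of all genes compared were higher and 2.01% lower.

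Relatives of these genes were read in the same conditions, several at higher levels. FPKM is scaled by transcript length, so levels of different genes can be set side by side. Sox2, the SoxB1 factor of pluripotent cells and itself one of the OSKM genes, was at 247.5 FPKM at 0 h and 33.0 at 96 h, above Sox1 and Sox3 at both. The SoxC genes Sox4 and Sox12 were higher at 96 h than at 0 h, as Sox11 was, Sox4 going from 3.60 to 47.9 FPKM and Sox12 from 9.22 to 32.8. Of 7 Sox relatives, 5 could be compared, with Sox4, Sox12 and Sox9 higher and Sox2 and Sox21 lower. Over all genes compared between 96 and 0 h, 16.8% were higher and 16.4% lower.

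The Zic relative Zic2 was at 7.84 FPKM at 0 h and 78.1 at 72 h, and Zic5 at 4.63 and 31.4, at timepoints at which Zic1 was below 0.3 FPKM. Likewise Pou3f1, the relative of Pou3f2 that marks formative cells, went from 0.827 FPKM at 0 h to 69.6 at 48 h and 25.9 at 96 h. Zic2 and Zic5 were the 2 of 4 Zic relatives higher at 96 h, and Pou3f1 was the 1 POU3 relative of 3 that reached 1 FPKM in this comparison. Of the 5 Pax relatives, Pax3 alone could be compared and was higher.

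**Figure D2:**
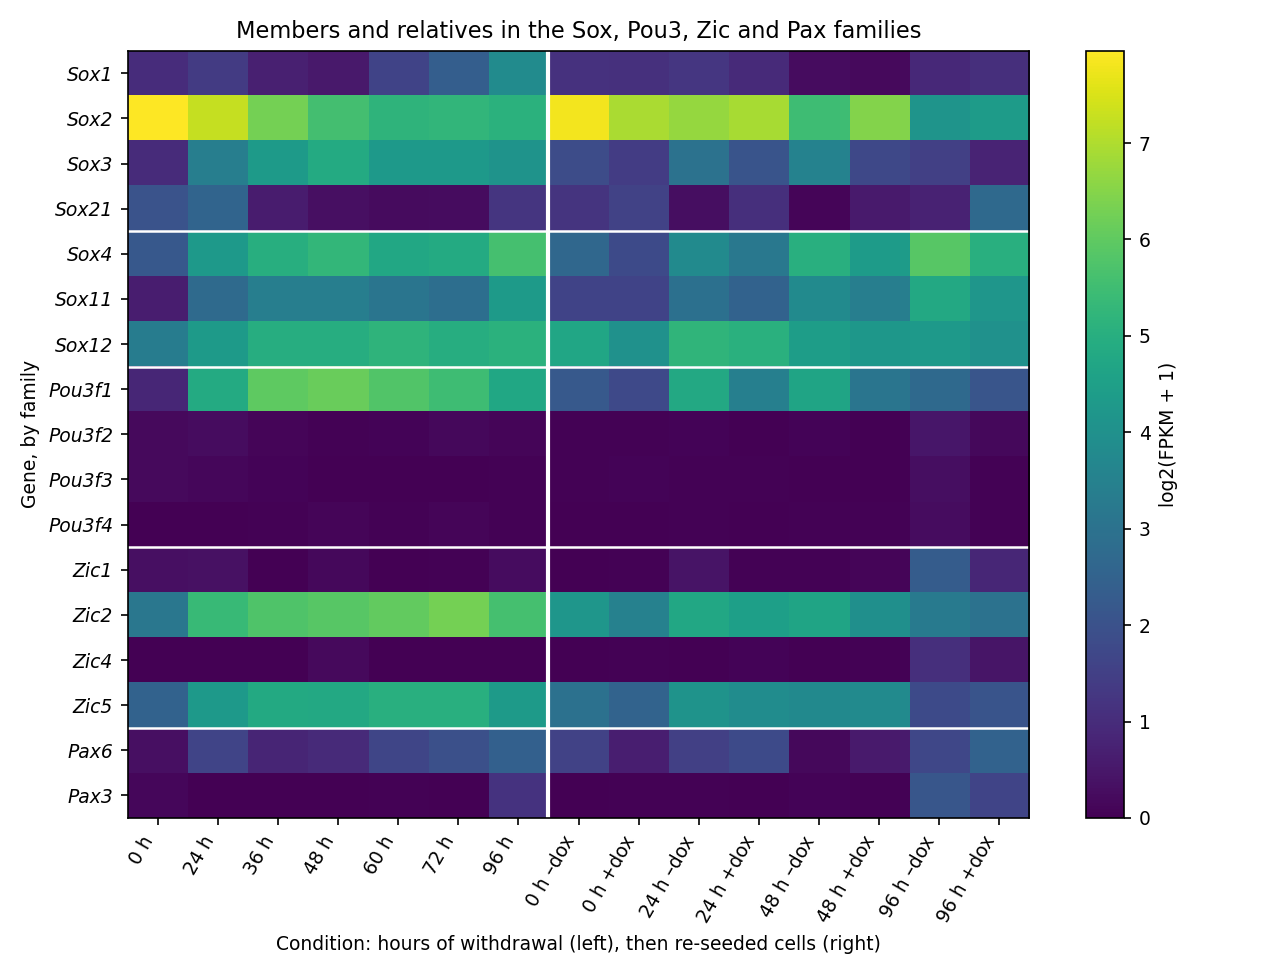
Level (log2 of FPKM + 1, colour scale) of Sox1, Sox3, Sox11, Pou3f2, Zic1 and Pax6 with relatives, 1 row per gene and 1 column per condition, the withdrawal on the left of the white vertical line and re-seeded cells on the right. Sox2 is the brightest row at 0 h (247.5 FPKM), Pou3f1 and Zic2 are bright from 24 to 96 h of withdrawal, and the rows of Pou3f2, Pou3f3 and Pou3f4 stay dark.

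Genes with related roles were followed as lists, beside which 16.8% of all genes compared were higher at 96 h than at 0 h and 16.4% lower. Of 20 neural plate regulators, 14 could be compared between 96 and 0 h, with 7 higher and 4 lower. Irx3, a patterning factor of the neural tube, went from 0.160 to 5.88 FPKM and Otx2, which acts in the epiblast as well as in the forebrain, from 16.6 to 33.7, while Gbx2 went from 13.5 to 5.50. Foxd4, Nr2f1, Zfp521, Hes5 and Meis1 were the other higher genes, and Hesx1, En2 and Sall3 the other lower ones. Of 10 neural stem cell markers, 5 of 8 were higher and 1 lower, with Prom1 going from 1.60 to 32.6 FPKM and the RNA-binding protein gene Msi1 from 19.4 at 0 h through 2.21 at 24 h to 41.7 at 96 h. Vim, a filament gene that fibroblasts make abundantly, was the lower one, at 381.5 FPKM at 0 h and 63.3 at 96 h.

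Of 12 proneural and Notch pathway genes, 4 of 5 were higher (Dll1, Dll3, Hes6 and Insm1) and 1 lower (Olig2). Of 16 neuronal markers, 6 of 14 were higher and 3 lower, where 16.8% of all genes compared were higher and 16.4% lower. The growth cone protein gene Gap43 went from 0.772 to 20.3 FPKM, whereas Mapt (tau) went from 13.1 to 0.946 and Tubb2b, a tubulin like Tubb3, from 258.4 to 78.7. The median log2 ratio of the list was 0.36.

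Genes of other fates and of pluripotency were counted in the same way, beside the same shares of 16.8% higher and 16.4% lower over all genes compared. Of 14 mesoderm and endoderm markers 6 could be compared, with 1 higher (Tbx6) and 3 lower (T, Eomes and Gsc). This depends on 0 h as the reference, as the list summed to 18.3, 3.57 and 7.77 FPKM at 0, 24 and 96 h. With 24 h as the reference, chosen after seeing the data, T and Gsc were below 1 FPKM and not compared. Gata4 (0.383 FPKM at 24 h and 2.35 at 96 h) and Tbx6 (0.141 and 1.13) were then higher, and Eomes (1.18 and 0.515) was lower. Of 12 neural crest and surface ectoderm markers, 4 of 7 were higher (Ets1, Msx1, Msx2 and Gata3) and 2 lower (Tfap2a and Foxd3). All 10 naive pluripotency markers were lower, Nanog going from 227.1 to 14.5 FPKM, and of the 10 formative markers 6 were higher and 2 lower. Of the OSKM genes, Pou5f1 (Oct4), Sox2 and Klf4 were lower at 96 h and Myc was higher.

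After re-seeding in serum/LIF without dox, the set of genes called higher or lower varied with the time of withdrawal. Sox3, Nes, Ncam1 and Tubb3 were called at more than 1 time. Re-seeded 0 h cells had more Sox3, Sox11 and Pax6 and less Nes and Ncam1 than cells before re-seeding, 24 h cells had more Nes, and 48 h cells had less Sox3 and Tubb3. The calls of Sox3 and Sox11 at 0 h are lost when 1 FPKM is added. The 96 h cells had 14.9-fold less Sox1 and 8.53-fold less Sox3, and 18.7-fold more Zic1, 2.46-fold more Ncam1 and 3.04-fold more Tubb3. The study's methods, written for its colony-forming assay, put cells on gelatin for the withdrawal and on CF1 feeders, at a lower density, for re-seeding. In these comparisons the medium, 48 h of further culture and the single-cell re-seeding changed together. By those methods the feeder layer and the density changed as well, and none of these can be told apart. The 16 fibroblast markers summed to 854 FPKM in 0 h cells before re-seeding and 12.8 after it, with none of 15 higher and 13 lower. Their part in the lower Nes and Ncam1 of re-seeded 0 h cells, and the presence of feeders in these samples, were not tested.

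At 0 h, 3 of the 7 genes compared were higher after re-seeding and 2 lower, where 12.0% of all genes were higher and 10.1% lower. At 24 h, 1 of 7 was higher and none lower, against 14.9% and 10.6%. At 48 h, none of 5 was higher and 2 were lower, against 15.3% and 11.5%. At 96 h, 3 of 8 were higher and 2 lower, against 12.4% and 11.2%. Over all 4 comparisons 7 of 27 were higher and 6 lower, against 13.6% and 10.9% over all genes.

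Sox1 was at 1.21, 1.37, 0.208 and 0.893 FPKM in – dox cells re-seeded after 0, 24, 48 and 96 h, so that its level after 96 h of withdrawal, 13.3 FPKM, was not seen in any re-seeded condition. Sox3 was at 2.57, 7.02, 10.5 and 1.86 FPKM. Pax6 was at 1.98, 1.82, 0.120 and 2.23 FPKM, with its lowest value, like that of Sox1, in 48 h cells. Sox3 thus had its highest – dox value in the 48 h cells, where Sox1 and Pax6 had their lowest.

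Sox11 did climb, at 2.03, 6.65, 13.0 and 26.6 FPKM, and its 96 h – dox value was the highest of all 15 conditions. Nes was at 1.58, 18.0, 22.2 and 9.31 FPKM. Tubb3 was at 7.89, 20.5, 8.24 and 31.7 FPKM, high at 24 and 96 h only. Ncam1 was at 1.13, 1.19, 1.10 and 5.41 FPKM, and Zic1 at 0.0128, 0.332, 0.0356 and 3.98, each with 1 high value, that of 96 h cells. Pou3f2 had its highest value of all conditions in the same cells, at 0.410 FPKM.

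**Figure D3:**
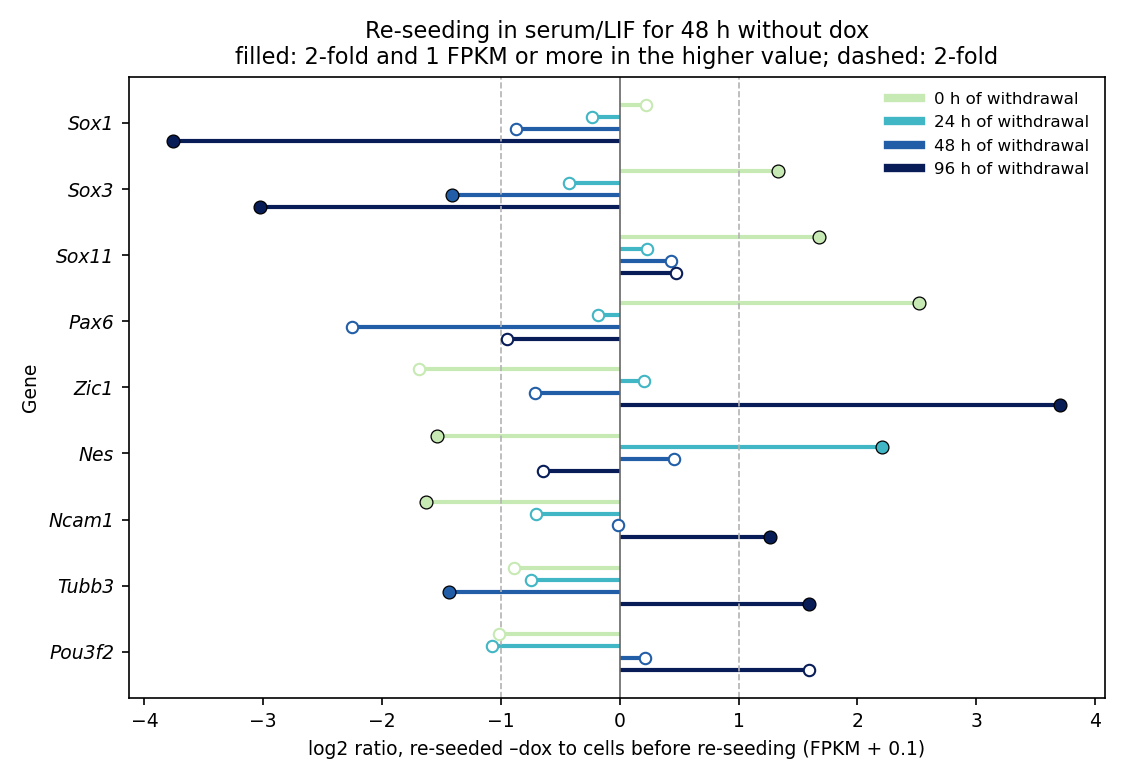
Log2 ratio (FPKM + 0.1) of re-seeded – dox cells to cells of the same withdrawal time before re-seeding, 1 line per gene and time. Filled points differ at least 2-fold with 1 FPKM or more in the higher value, and dashed lines mark 2-fold. At 96 h, Sox1 (-3.76) and Sox3 (-3.03) lie far to the left and Zic1 (3.71) far to the right.

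Compared among themselves, – dox cells of 96 h had 5 of 8 genes higher than those of 0 h (Sox11, Zic1, Nes, Ncam1 and Tubb3) and none lower, where 21.5% of all genes compared were higher and 21.7% lower. Sox11 was 13.1-fold higher and Nes 5.91-fold. The median log2 ratio was 1.99 over the 9 genes, 2.08 over the 8 compared and -0.02 over all genes compared. Over the 3 comparisons of 24, 48 and 96 h with 0 h – dox, 12 of 22 values were higher and 2 lower, against 15.2% and 16.9% over all genes, and the 2 lower were Sox1 and Pax6 at 48 h.

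Of 14 mesoderm and endoderm markers, 4 could be compared between 48 h – dox cells and cells before re-seeding. All 4 were higher after re-seeding (T, Eomes, Sox17 and Hand1), with T at 5.90 FPKM after and 0.0653 before. Of the formative markers, 8 of 10 were lower. Over all genes compared, 15.3% were higher and 11.5% lower. The part of these cell states in the lower Sox3 and Tubb3 was not tested. Genes of other fates were also higher in 96 h – dox cells than before re-seeding, where 12.4% of all genes compared were higher and 11.2% lower. Of 12 neural crest and surface ectoderm markers, 7 of 10 were higher and none lower, with Msx2 at 24.9 FPKM after and 2.08 before re-seeding, and Gata3 at 13.3 and 3.11. Among mesoderm and endoderm markers, 4 of 6 were higher (Foxa2, Sox17, Gata6 and Hand1) and 1 was lower (Tbx6), with Hand1 at 38.2 FPKM after and 0.590 before. The fibroblast markers summed to 512 FPKM after and 236 before, with 9 of 12 higher and 2 lower (Thy1 and Dcn). Acta2 (255.2 and 97.9 FPKM) and Tagln (84.7 and 104.5) made up most of both sums, and Col1a2 was at 86.0 and 13.6. The most abundant fibroblast marker in 96 h – dox cells was thus Acta2, and none was at 0. Against 0 h of withdrawal these cells had far less Col3a1 (8.22 and 200.8 FPKM), Dcn (0.791 and 71.0), Lum (0.0605 and 14.8) and Col6a3 (0.0366 and 5.78). Col1a2, at 160.0 FPKM at 0 h, was nearer its 0 h value, and Acta2, Tagln, Twist2 and Pdgfrb were above theirs. Whether this RNA came from feeder fibroblasts or from fibroblast-like cells derived from the iPSCs was not tested. The part of these cell types in the values of Zic1, Ncam1 and Tubb3 was not tested.

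Neural genes outside the 9 were mixed in the same comparison, where 12.4% of all genes compared were higher and 11.2% lower. Of the neural plate regulators, 5 of 12 were higher (Otx1, En1, Irx3, Nr2f1 and Meis1) and 3 lower (Otx2, Gbx2 and Foxd4), with Irx3 at 20.96 FPKM after and 5.88 before re-seeding. Zic4, the neighbour of Zic1, was the 1 higher Zic relative, at 1.10 FPKM after and listed at 0 before, whereas Zic2 went from 48.3 to 8.49 FPKM and Zic5 was lower too. Pax3, a factor of the dorsal neural tube and neural crest, was higher. Among neuronal markers 3 of 15 were higher (Gap43, Mapt and Dpysl3) and 1 lower (Rbfox3), with Gap43 at 67.2 FPKM after and 20.3 before.

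**Figure D4:**
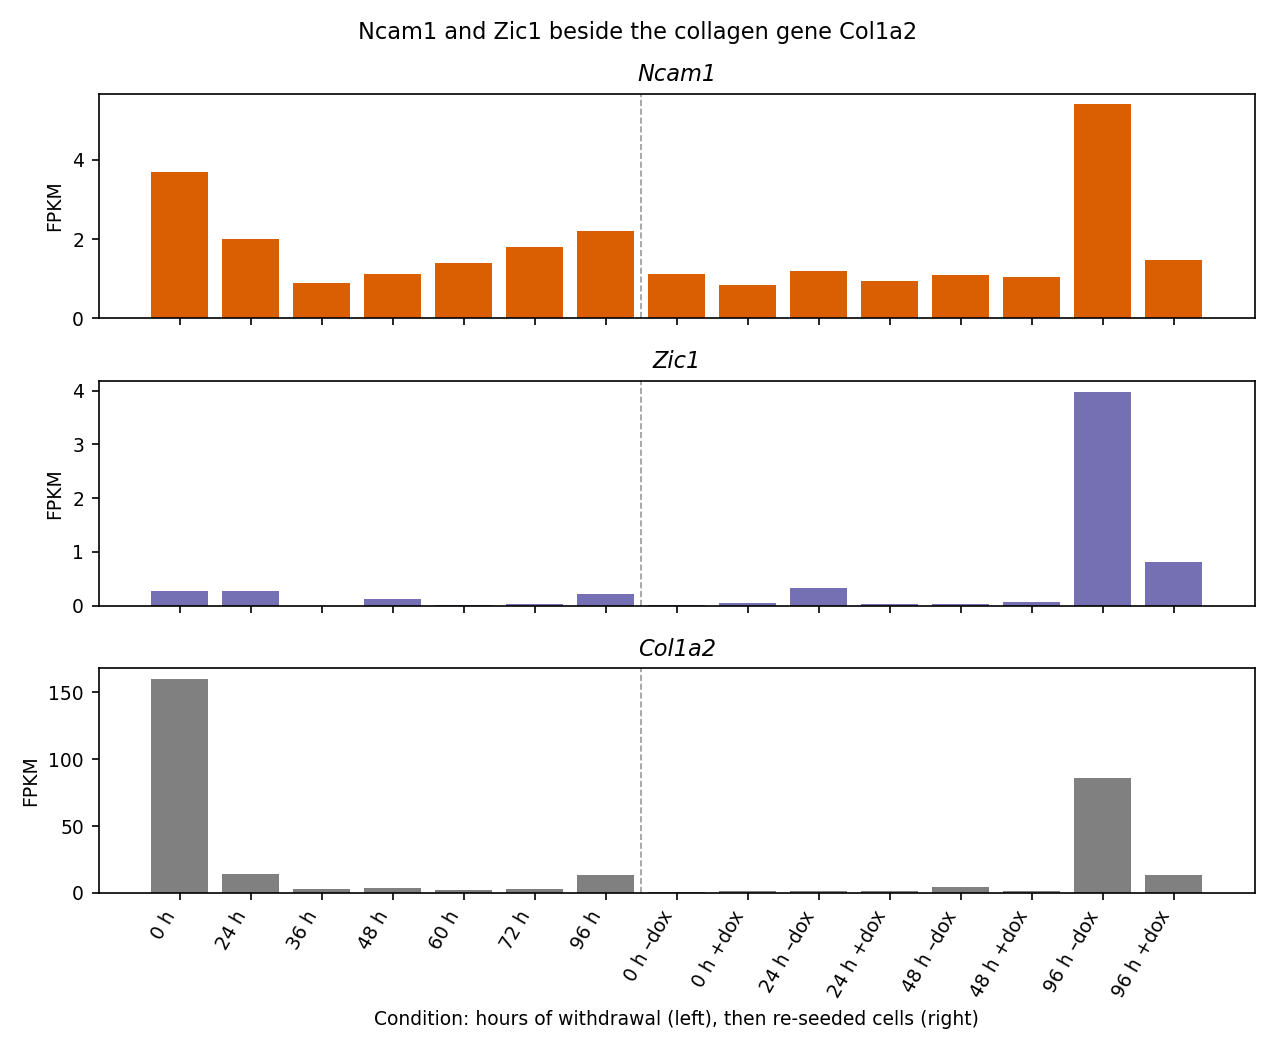
FPKM (bars from 0, 1 combined value per condition) of Ncam1, Zic1 and the collagen gene Col1a2 in all 15 conditions, the withdrawal on the left of the dashed line and re-seeded cells on the right. Ncam1 has its 2 highest values at 0 h (3.69) and in 96 h – dox cells (5.41), the conditions in which Col1a2 is highest as well (160.0 and 86.0), and Zic1 is high in 96 h – dox cells only (3.98).

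With OSKM induction more of these genes were lower than higher. Sox3 was lower with dox at 24, 48 and 96 h, Pax6 and Tubb3 at 0 h, Nes at 24 h, and Zic1, Ncam1 and Tubb3 at 96 h. Pax6 at 96 h was the 1 value called higher. Over all 4 comparisons 1 of 27 values was higher and 9 were lower, where 4.93% of all values were higher and 6.63% lower. The – dox values used here are the ones used above for re-seeding.

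At 0 h, none of 7 genes was higher with dox and 2 were lower, against 3.62% and 5.61% of all genes. At 24 h, none of 7 was higher and 2 were lower, against 2.87% and 3.4%. At 48 h, none of 5 was higher and 1 was lower, against 6.56% and 6.46%. At 96 h, 1 of 8 was higher and 4 were lower, against 6.67% and 11.1%. The median log2 ratio over the members compared was -0.38, -0.49, -0.41 and -0.94 for these 4 times, and over all genes compared it was 0.05, 0.02, -0.02 and -0.01. Over all 9 genes, those too low to compare included, it was -0.04, -0.49, -0.29 and -1.15.

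Sox3 was at 1.65, 3.19, 2.31 and 0.724 FPKM with dox after 0, 24, 48 and 96 h, below the – dox value at every time. The ratio was largest in 48 h cells, at 4.54-fold lower with dox, where – dox cells had their highest Sox3 value. In 48 h cells 6 of 9 naive markers were higher with dox and none lower. Of mesoderm and endoderm markers none of 5 was higher and 4 were lower. Of 10 formative markers 2 were higher (Etv4 and Otx2) and 3 lower (Fgf5, Lef1 and Pou3f1). Over all genes 6.56% were higher and 6.46% lower. The part of these cell states in the lower Sox3 was not tested. The calls of Sox3 at 24 and 96 h are lost when 1 FPKM is added. Nes was at 1.67, 7.48, 16.7 and 5.99 FPKM with dox, and was 2.41-fold lower at 24 h. Sox11, at 2.01, 4.62, 9.59 and 17.1 FPKM, climbed with the time of withdrawal as it did without dox and differed from – dox cells by less than 2-fold at each time.

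Tubb3 was at 2.99, 17.8, 10.1 and 7.38 FPKM with dox, 2.64-fold lower at 0 h and 4.30-fold lower at 96 h, and within 2-fold at 24 and 48 h. Zic1 was at 0.816 FPKM in 96 h + dox cells, 4.88-fold lower than without dox, and below 0.08 in the other + dox conditions. Ncam1 was at 0.843, 0.932, 1.05 and 1.47 FPKM with dox, and was 3.69-fold lower at 96 h. In 96 h cells the 3 genes that were higher after re-seeding were thus lower with dox than without, comparisons that share the – dox value. Pou3f2 was below 0.13 FPKM in all + dox conditions and listed at 0 at 48 h.

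Pax6 was at 0.599, 2.47, 0.476 and 4.63 FPKM with dox. It was 3.30-fold lower with dox at 0 h and 2.08-fold higher at 96 h, and its 96 h + dox value was the highest of the 15 conditions. Both calls are lost when 1 FPKM is added to both values, and that at 96 h also when the sums are made equal. Sox1 was at 1.17, 0.949, 0.151 and 1.10 FPKM with dox, within 2-fold of – dox cells at every time. With dox as without it, Sox1 and Pax6 had their lowest re-seeded values in 48 h cells.

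**Figure D5:**
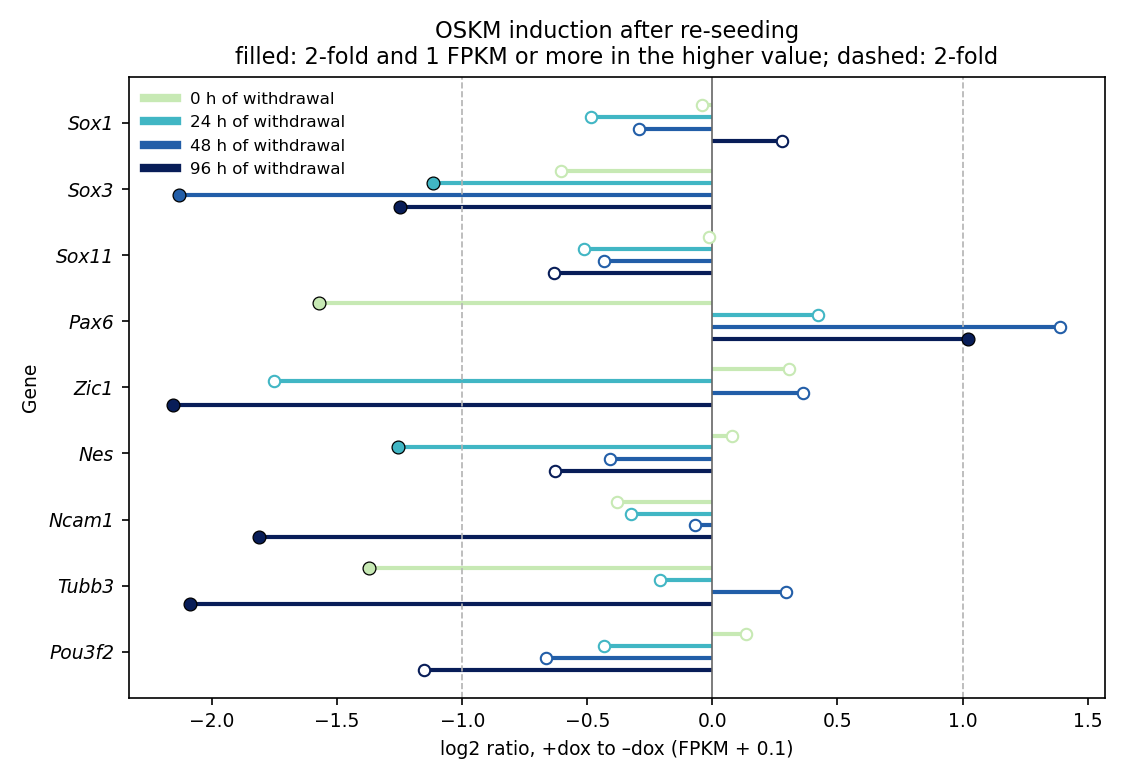
Log2 ratio (FPKM + 0.1) of + dox to – dox cells re-seeded after 0, 24, 48 or 96 h of withdrawal, 1 line per gene and time. Filled points differ at least 2-fold with 1 FPKM or more in the higher value, and dashed lines mark 2-fold. Of the 10 filled points, 9 lie on the left and 1, Pax6 at 96 h (1.02), on the right.

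Other neural genes were mixed between 96 h + dox and – dox cells, and most fibroblast markers that were called were lower with dox. Over all genes compared, 6.67% were higher with dox and 11.1% lower. Of 20 neural plate regulators, none of 10 was higher and 6 were lower (Otx1, En1, Irx3, Nr2f1, Zfp521 and Hes5), Irx3 being at 3.10 FPKM with dox and 20.96 without. Among neuronal markers 3 of 13 were higher (Map2, Stmn2 and Dpysl3) and 5 lower, among them Gap43 at 32.7 and 67.2 FPKM. Stmn2, a neuronal microtubule regulator gene, was at 130.6 FPKM with and 54.9 without dox. Of the neural stem cell markers, 2 of 9 were higher with dox (Prom1 and Notch1) and 3 lower (Vim, Fabp7 and Cdh2), and Prom1 was at 22.8 and 11.2 FPKM. Among the Sox relatives, the SoxB2 gene Sox21 was higher with dox, at 5.57 and 0.678 FPKM, and Sox9 was lower, at 0.542 and 3.98. The fibroblast markers summed to 322 FPKM with and 512 without dox, with 7 of 12 lower and 1 higher (Dcn). Acta2 (193.0 and 255.2 FPKM) and Tagln (87.2 and 84.7) made up most of both sums, and Col1a2 was at 13.2 and 86.0. The mesoderm marker Hand1 was at 1.76 and 38.2 FPKM. The part of these cell types in the lower values of Zic1, Ncam1 and Tubb3 with dox was not tested.

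The OSKM genes themselves, measured without telling endogenous from transgene RNA, were used as a check of the labels. Pou5f1 was at 359.6, 213.5, 72.6 and 2.63 FPKM without dox and at 425.4, 261.9, 203.5 and 9.95 with dox after 0, 24, 48 and 96 h, higher with dox at each time. Sox2 was at 224.4, 103.2, 43.4 and 16.3 FPKM without and 121.9, 120.6, 87.8 and 19.6 with dox. Klf4 was at 84.8, 10.4, 4.68 and 11.4 FPKM without and 66.7, 14.2, 14.6 and 11.6 with dox. Myc was at 24.5, 44.3, 35.9 and 57.6 FPKM without and 18.7, 22.4, 18.7 and 36.1 with dox. Only Pou5f1, Sox2 and Klf4 at 48 h and Pou5f1 at 96 h were called higher with dox, so the check did not separate the labels at 0 and 24 h. Sox2 and Klf4 at 0 h and Myc at all 4 times were lower in the cells labelled + dox, each by less than 2-fold.

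Genes with the pattern most like that of each of the 8 genes that reach 1 FPKM were searched among 7217 genes that reached 10 FPKM and varied at least 2-fold, by Pearson correlation of log2(FPKM + 1) over the 15 conditions, which share 1 table and 1 normalization. Sox3 was closest to the formative genes Fgf5 (r = 0.97), Zic2 (0.96) and Pou3f1 (0.96). Fgf5 went from 0.164 FPKM at 0 h to 37.3 at 48 h of withdrawal and was at 17.2 in 48 h – dox and 0.381 in 48 h + dox cells. Sox11 was closest to Nnat (0.95), an imprinted gene of developing brain, which was at 0.973 FPKM at 0 h, 90.8 at 96 h and 266.5 in 96 h – dox cells.

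Ncam1 was closest to Col1a2 (0.90), Slc39a6 (0.89) and the collagen crosslinking enzyme gene Loxl2 (0.89). Zic1 was closest to Irx4 (0.97), the endothelial cadherin gene Cdh5 (0.96) and Bambi (0.96), all of which had their highest value in 96 h – dox cells. Cdh5 was at 13.1 FPKM there and at or below 0.78 in the other 14 conditions. Nes was closest to Kbtbd2 (0.92) and the smooth muscle calponin gene Cnn1 (0.91). The closest genes of Sox1 (Trim54, 0.76), Pax6 (Vapb, 0.79) and Tubb3 (Ints5, 0.86) were less alike. The names depend on the search, and 0 of the 3 closest genes of any of the 8 were the same over the 7 timepoints of withdrawal alone.

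Among the 9 genes themselves likeness was low. Of the 28 pairs of the 8 genes that reached 1 FPKM, 23 had a correlation above 0, 1 had 0.7 or more, and the median was 0.24. The 1 pair was Zic1 and Ncam1 (0.76), and without 96 h – dox cells its correlation was 0.38, an alternative chosen after seeing the data. Over the 7 timepoints of withdrawal the median over the 28 pairs was 0.03.

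Neighbouring and overlapping genes were checked because the strand setting of the counting was not given in the sources used here. Zic4 overlaps Zic1 on the opposite strand and was at 1.10 FPKM in 96 h – dox and 0.377 in 96 h + dox cells, its 2 highest values, which are also the 2 conditions with the highest Zic1. Gm20388 overlaps Tubb3 on the same strand and ranged from 0.203 FPKM at 48 h of withdrawal to 7.35 in 96 h + dox cells, so that reads of Tubb3 and Gm20388 may have been divided between them. The antisense gene Pax6os1 was listed at 0 in 14 conditions and at 0.114 FPKM in 48 h + dox cells. Gm11149, antisense to Ncam1, was at most 0.365 FPKM. Mc1r lies upstream of Tubb3 on the same strand and had its highest value, 1.76 FPKM, at 24 h of withdrawal, the timepoint of the Tubb3 peak. Gm14662 starts 223 bases from the start of Sox3 on the opposite strand and was at most 1.01 FPKM, at 60 h. Sox1ot, which overlaps Sox1 on the same strand, was not analysed here.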

How the data were processed

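RNA-seq was described for 30 samples in 15 conditions. Per the labels and the study's methods, polyadenylated RNA was sequenced on an Illumina HiSeq instrument, and the submitters' processing notes name mm10, TopHat2 2.0.14, Cufflinks 2.2.1 and Cuffdiff, with Gencode vM4 genes per the methods. The authors deposited FPKM values for 22477 genes, 1 per condition, combined from 2 replicates, and also columns of their own calls of responding genes and clusters, which were not used. Counts per replicate were not analysed here, so neither SD nor p-value is given. The labels number the replicates of a condition, and the study's reporting summary calls its replicates biological.

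The 9 genes, the lists of related genes and markers, the thresholds and the comparisons were chosen with earlier results of these data known. A call needed a ratio of 2 and 1 FPKM in the higher value, after the study's fold and expression thresholds but without its FDR. Named genes are the 9, the 3 genes most like each, overlapping genes, and from each list the 4 most abundant or those changed at least 8-fold between 0 and 96 h that reach 10 FPKM. Other list genes were named after their values were seen to show which genes a count holds. Some list genes that enter the counts are not reported here.

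The FPKM sums ranged from 603278 to 832607 per condition, and median-ratio factors from 0.993 to 1.04, so values were used as deposited. Depth per sample is not given. From the lowest FPKM of single-transcript genes, a 2 kb gene at 1 FPKM was estimated to rest on about 28.1 to 38.2 fragments in most conditions and 77.3 to 93.2 in cells re-seeded after 0 or 24 h, a rough figure. Positions are from Gencode M21 and promoters from RefSeq (GRCm38.p6). Python 3.11.15, pandas 2.3.3 and numpy 2.4.6 were used.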

Additional observations from a re-analysis of the deposited data

Results flagged for a closer look

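Pax6 differed in opposite directions between + dox and – dox cells according to the time of withdrawal. The log2 ratio (FPKM + 0.1) was -1.57 in cells re-seeded after 0 h, from 1.98 FPKM without dox to 0.599 with dox, and 1.02 in cells re-seeded after 96 h, from 2.23 to 4.63 FPKM. Each is a ratio of single combined values, and the difference between the times was not tested. With 1 FPKM added to both values neither call was made, and with values scaled to equal sums Pax6 at 96 h was no longer called higher.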

How the results depend on the processing

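No value per replicate was at hand, so leaving out replicates was not run. No paired analysis was possible because the columns hold 1 combined value per condition and carry no replicate numbers. No log2 ratio of a called gene changed sign. Against 0 h of withdrawal (24 values higher, 5 lower), 5 FPKM in the higher value left 0 lower, 1 FPKM in both values left 8 higher, since Sox3, Sox11 and Pax6 were below 1 FPKM at 0 h, and 3 lower, since Ncam1 at 36 h and Sox1 at 48 h were below 1 FPKM, and at 96 h alone 2 in place of 5 were higher. The lower count was 8 at a fold of 1.5, 2 at a fold of 3, 3 after adding 0.1 FPKM, 2 after adding 1 FPKM and 3 with equal sums. With 24 h as the reference (5 comparisons) 11 of 35 were higher and 7 lower, against 13.2% and 11.2% over all genes, and with re-seeded 0 h – dox cells 26 of 42 were higher and 3 lower, against 12.0% and 16.2%, both references chosen after seeing the data. Between neighbouring timepoints (11 higher, 4 lower) the counts were 7 and 1 with 5 FPKM, 6 and 1 with 1 FPKM in both, and 6 and 0 at a fold of 3, and 8 were lower at a fold of 1.5 and 0 after adding 1 FPKM. With dox (1 higher, 9 lower), 0 were higher with 5 FPKM, at a fold of 3, after adding 1 FPKM and with equal sums, and 5 were lower at a fold of 3. For re-seeding (7 higher, 6 lower), 3 were higher with 5 FPKM and 3 with 1 FPKM in both, and 11 were lower at a fold of 1.5. For later against 0 h – dox cells (2 lower), 0 were lower with 5 FPKM and with 1 FPKM in both, and 1 after adding 1 FPKM. The genes most like each of the 8 shared 0 of 3 names when searched over the 7 timepoints alone. With Spearman's rho 5 of the 8, and among genes that reach 1 FPKM also 5 of the 8, kept fewer than 2 of their 3 names, while Sox3 and Sox11 kept 2 or 3 in both. Of 22 medians over the 9 genes, 16 moved by 0.1 or more on the log2 scale after adding 1 FPKM, 12 with equal sums and none with median-ratio scaling, with no change of sign. Over the members compared alone, a choice made after seeing the data, 12 moved without a change of sign, and for re-seeding the sign changed at 0 h (from -0.89 to 0.22) and at 96 h (from 0.47 to -0.088). The causes of these changes were not tested except where stated. Low levels rest on fewer fragments, which limits Zic1 and Pou3f2 most.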
